A study of Mus musculus with 8 samples.

Results

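The response of NIH3T3 cells to Hedgehog ligand medium was described in the line labelled with the Esrrb vector, from the 2 vehicle samples and the 2 Hh-CM samples of that line, 4 of the 8 samples of the series. NIH3T3, a line of mouse embryonic fibroblasts, is widely used to follow Hedgehog signalling. The Esrrb samples were NIH3T3 cells stably transfected with pcDNA3.1 (Zeo+) carrying Esrrb, an estrogen-related nuclear receptor, and treated with vehicle. The Esrrb+Hh-CM samples came from that line after treatment with Hh-CM. The Hh-CM was taken from HEK293 cells, a human embryonic kidney line, with a transgene for N-terminal Sonic Hedgehog, and vehicle is medium of HEK293 cells without it. Both media were diluted 100-fold and applied for 48 h in 5% NBCS, after selection of the line with 150 µg/ml Zeocin. The Control and Hh-CM samples of the series, 2 each, received the same treatments in NIH3T3 cells with the empty vector, and their values are given only beside those of the Esrrb-labelled line. The study made 2 independent transfections and pooled the established cells. Its methods call the 2 samples of a group biological replicates of a culture condition. Whether cells were pooled within or across the transfections is not clear from the methods. The p-values measure the spread between these samples and cannot be taken to measure that between transfections.

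RNA-Seq values were FPKM, a level scaled to transcript length and to the mapped fragments of the sample, for each gene. Values in each of the 8 samples were at hand for 20194 genes, and 10116 of these reached an FPKM of 1 or more in at least 2 of the 4 samples and were tested. The second highest FPKM was 1 for the gene just inside this limit and 0.9996 for the gene just outside it.

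Hedgehog ligand binds the receptor Patched, which otherwise holds the membrane protein Smoothened inactive. Once Smoothened is free, Gli transcription factors reach the nucleus and switch on their targets, among which are Gli1 and Ptch1. In fibroblasts and mesenchyme the pathway is known for effects on proliferation, patterning and the secreted matrix. Estrogen-related receptors bind DNA without a known hormone and are known for control of mitochondrial genes and of pluripotency.

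Several facts about the samples bear on every value. Esrrb itself was listed at 0 FPKM in all 4 samples that carry the Esrrb label, and at 0.0281 and 0.0203 in the Hh-CM samples with the empty vector. The vector label could therefore not be checked at the mRNA level, and whether transcripts of the insert would map to the mouse gene is not given in the sources used here. The study reported by Western blot that the Esrrb-transfected cells had more Esrrb protein than the empty-vector cells, and protein was not analysed here. The line is called Esrrb-labelled throughout. In Esrrb replicate 1, 8080 of the 16753 loci that Cufflinks had numbered carried the same number, start and end as in Hh-CM replicate 2, against at most 106 for any other pair of samples. None of these shared loci had the same FPKM above 0 in both samples. In Esrrb replicate 1, 8396 numbered loci also carried a number used more than once, against 0 in every other sample. Cufflinks gave 480 of its loci the status LOWDATA, against 62 to 78 in the others. Counts without Esrrb replicate 1 are given for all tested genes and for some of the lists only. Judged by the steps between low FPKM values, and with Control replicate 1 set to 1, depth was 0.852 and 0.972 with vehicle and 0.948 and 0.743 with Hh-CM. The replicates differed by less than 1 on the log2 scale for 97.95% of tested genes with vehicle and 97.92% with Hh-CM. Fibroblast markers were high: 10 of 10 matched markers were tested and their summed FPKM was between 8988 and 10030 in the 4 samples. The 7 epithelial markers summed to 0.0525 to 0.0916 FPKM, with no member tested, and the 4 matched neural markers to 0.196 to 0.445.

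A change was called where the adjusted p was below 0.05 and the means differed by 1 or more on the log2(FPKM + 0.1) scale, which understates the change of low genes. Hh-CM raised 352 genes (3.48% of those tested) and lowered 134 (1.32%). Without the limit on fold change the adjusted p was below 0.05 for 1428 higher and 975 lower genes. Genes at exactly 0 in both samples of 1 treatment were set apart, 15 on the vehicle side and 7 on the Hh-CM side, and are described at the end. Of the 10094 genes left, 340 rose (3.37%) and 131 fell (1.3%). All 471 moved in the same direction in each of the 4 pairs of samples. The calls rest on the same values, so this is no separate support for them. Most changes were moderate: 46 of the rises and 19 of the falls were over 4-fold, and 16 and 4 were over 8-fold. Among these genes 50 rises and 25 falls passed the FPKM limit only through the treatment in which they were high. Without Esrrb replicate 1 the counts over all tested genes were 367 and 141. The counts of each gene list below are to be read against the 3.37% that rose and the 1.3% that fell.

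The Hedgehog pathway list named 33 genes, 31 were matched and 28 tested. Of these Gli1, Ptch1 and Gli2 rose and Gas1 fell, and 23 had no call. The median log2 fold change of the list was 0.1, against 0.04 for all tested genes. The largest change of the list was in Gli1, the transcription factor that is both effector and target of the pathway. Its FPKM was 0.106 and 0.0372 with vehicle and 34.5 and 34.8 with Hh-CM. Both Hh-CM samples lay far above both vehicle samples, with a log2 fold change of 7.69 (SE 0.2, adjusted p = 2.23e-05). Gli1 passed the FPKM limit only through the Hh-CM samples, so a difference was bound to appear and its value is a description. In the empty-vector line the difference was 7.77.

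Ptch1, which encodes the Patched receptor, moved with Gli1. It was at 3.08 and 2.76 FPKM with vehicle and at 43.9 and 47.7 with Hh-CM, 15.2-fold higher (adjusted p = 2.4e-05). Its values did not overlap between treatments, and in the empty-vector line the log2 fold change was 3.73 against 3.93 here. The gene carries the letters GACCACCCA, the consensus that Gli proteins bind, within 2000 bases of its annotated start in the mm9 genome. Of 22238 protein-coding genes 3.51% held these letters on either strand in such a window, among them 17 of 337 scanned genes that rose (5.04%) and 5 of 127 that fell (3.94%). The stretch is shown because it lies before the start of the receptor gene whose mRNA rose. Capitals mark the searched letters, and the stretch reads along the minus strand, on which the gene lies. It is at chr13:63674753-63674801, with the letters at position -303 from the start.
Ptch1: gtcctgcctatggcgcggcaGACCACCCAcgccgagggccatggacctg
This match describes letters and not an occupied site. In the shorter windows of the RefSeq promoter table (GRCm38.p6, 250 bases before to 50 after the start), 24 genes of the Hedgehog list with Hsd11b1 and Igfbp4 had an entry and none held the letters, against 0.289% of 27025 genes.

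**Figure D1:**
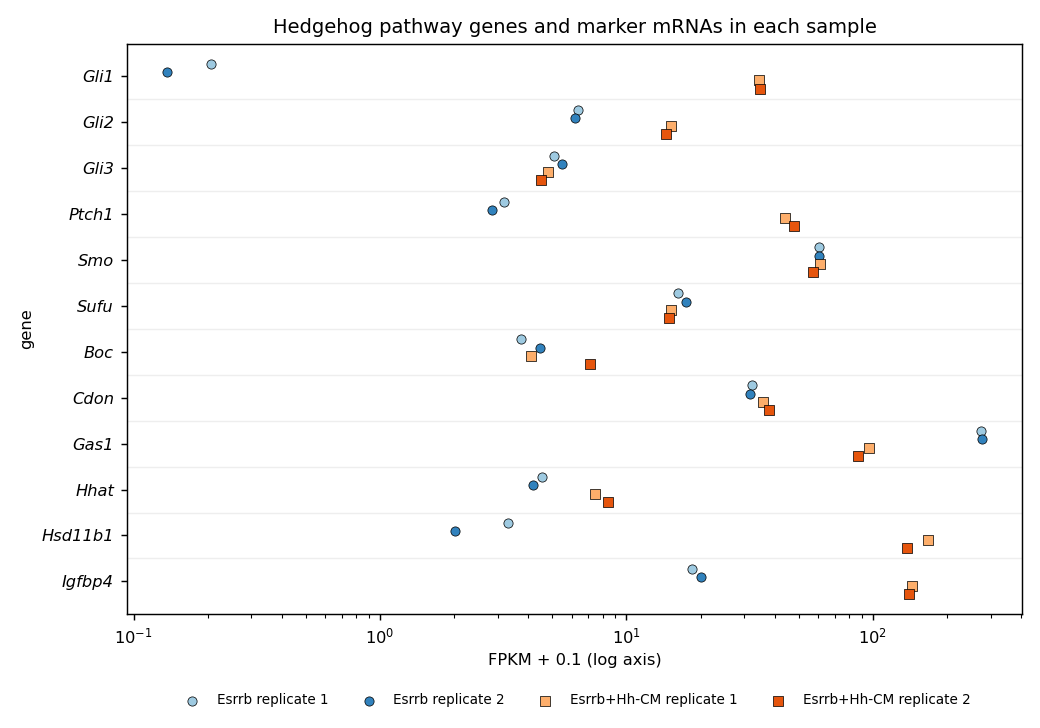
FPKM + 0.1 on a log axis for 10 genes of the Hedgehog pathway and the marker mRNAs Hsd11b1 and Igfbp4, one point per sample; circles are the Esrrb samples and squares the Esrrb+Hh-CM samples. Gli1, Ptch1, Gli2, Hsd11b1 and Igfbp4 lie to the right with Hh-CM and Gas1 to the left, while the points of Smo and Boc overlap between treatments.

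The other Gli factors behaved unequally. Gli2, the main activator that carries the signal to the nucleus, rose from 6.27 and 6.11 FPKM to 15.1 and 14.3, a log2 fold change of 1.24 (adjusted p = 0.000247). Gli3, known mostly as the repressor, was at 4.97 and 5.36 FPKM with vehicle and 4.69 and 4.41 with Hh-CM, with no call (log2 fold change -0.18). The Gli2 window held the letters TCAAGGTCA, the extended site of estrogen-related receptors, which 9.96% of all protein-coding genes held. Of the 33 genes of the Hedgehog list with Hsd11b1 and Igfbp4, 4 held them (12.1%). The others were Sufu, Prkaca and Mgrn1, which had no call.

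Among the coreceptors that help ligand reach Patched, Gas1 fell. Its FPKM was 275.5 and 276 with vehicle and 96.1 and 87 with Hh-CM, and all Hh-CM values lay below all vehicle values (log2 fold change -1.59, SE 0.05, adjusted p = 3.34e-05). Cdon and Boc were not called, with log2 fold changes of 0.2 and 0.41. The transducers had no call either. Smo was at 60.3, 60 and 61.2, 57.3 FPKM (log2 fold change -0.02), and Sufu, which restrains Gli proteins in the cytoplasm, differed by -0.16. Hhat, which attaches a fatty acid to Hedgehog ligands, was higher in both Hh-CM samples (7.36 and 8.33 against 4.42 and 4.08 FPKM) at an adjusted p of 0.00437, short of the limit on fold change at 0.87. Hhip, which encodes a decoy receptor, was listed at 0 in all 8 samples, and the ligand-handling genes Scube2 and Lrp2 stayed below the FPKM limit. The remaining tested members had log2 fold changes between -0.26 and 0.43.

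Hsd11b1, the enzyme that regenerates active glucocorticoid from its inactive keto form, had the second largest rise among genes with the same locus in all 4 samples. It was at 3.22 and 1.91 FPKM with vehicle and at 167 and 137.5 with Hh-CM, 58.7-fold higher (log2 fold change 5.88, SE 0.23, adjusted p = 5.43e-05). In the empty-vector line the log2 fold change was 4.36. The difference between the lines was 1.51 and did not pass the interaction test (adjusted p = 0.0899). Igfbp4, which binds insulin-like growth factors, was at 18.3 and 20 FPKM with vehicle and at 144 and 139.5 with Hh-CM. Its log2 fold change was 2.88 (SE 0.09, adjusted p = 2.73e-05), against 1.82 in the empty-vector line, with an interaction of 1.06 (adjusted p = 0.0253). The interaction was called in 13 of 20 alternatives, and its adjusted p was between 0.0513 and 0.085 without either Esrrb, either Esrrb+Hh-CM or either Hh-CM replicate and with a replicate block.

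Of 15 tested insulin-like growth factor genes, 4 rose and 2 fell. Beside Igfbp4 the binding proteins Igfbp5 and Igfbp7 rose, to log2 fold changes of 2.56 and 2.13. Igfbp7 was the most abundant of them, at 72.1 and 75.1 FPKM with vehicle and 350 and 296 with Hh-CM. Pappa2, a protease that cleaves binding proteins, rose by 1.08 on the log2 scale. The stanniocalcins Stc1 and Stc2, inhibitors of such proteases, had log2 fold changes of -1.24 and -1.04, and the call of Stc1 was lost with a pseudocount of 1. Igf1 itself was at 6.6 and 6.62 FPKM with vehicle and 9.74 and 8.75 with Hh-CM, below the limit on fold change at 0.48, where the empty-vector line had 1.32.

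Among 19 tested glucocorticoid-linked genes, the targets and partners of the hormone receptor, 2 rose and 5 fell, with a median of -0.49. Hsd11b1 and Fkbp5, a chaperone of steroid receptors, rose, and Angptl4, Pdk4, Aldh1a7, Ism1 and Lcn2 fell. Angptl4, an inhibitor of lipoprotein lipase, was at 196.5 and 204.5 FPKM with vehicle and at 31 and 28.3 with Hh-CM, 6.75-fold lower. Pdk4, a kinase that shuts pyruvate out of oxidation, was at 65.6 and 66.2 FPKM with vehicle and at 19.3 and 20.1 with Hh-CM, a log2 fold change of -1.74 against -1.11 in the empty-vector line.

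Among named genes with the same locus in all 4 samples, the largest rise was that of Retnla, which encodes a secreted resistin-like protein. It was at 1.04 and 1.14 FPKM with vehicle and 144 in both Hh-CM samples, a log2 fold change of 6.92 (SE 0.69, adjusted p = 0.0012). With a pseudocount of 0.001 the adjusted p was 0.105. Its replicates with the empty vector and vehicle were further apart, at 0 and 0.403 FPKM. Serpinb1a, a protease inhibitor, was at 0.257 and 0.674 FPKM with vehicle and 10.1 and 8.38 with Hh-CM. Hes1, a transcriptional repressor downstream of Notch and other signals, was at 0.118 and 0.0515 FPKM with vehicle and 3.27 and 2.7 with Hh-CM, 16.9-fold higher. Cyp26b1, which degrades retinoic acid, was at 1.78 and 1.77 FPKM with vehicle and 12.3 and 12.5 with Hh-CM. The separation of the treatments follows from the choice of the largest rises, and Serpinb1a and Hes1 passed the FPKM limit only through the Hh-CM samples.

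The other large rises were in genes of low level, between 0.0289 and 2.26 FPKM with vehicle. They were the hormone gene Fgf23 (log2 fold change 3.11), the angiopoietin receptor Tek (3.42), the lipid kinase Pik3c2b (3.12), the laminin chain Lama5 (3.12), the nucleotide kinase Cmpk2 (2.85), the chemokine receptor Ccr7 (2.65) and the deubiquitinase Usp2 (2.65). The ribonucleases Ear10 and Ear1 had values of 2.63 and 2.54, but they are near-identical paralogs whose reads cannot be assigned with certainty. All of these rises except Usp2 passed the FPKM limit only through the Hh-CM samples, so a difference was bound to appear. Tek was the 1 tested gene of the 5 endothelial markers, whose summed FPKM was 0.0812 and 0.088 with vehicle and 1.23 and 1.67 with Hh-CM.

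**Figure D2:**
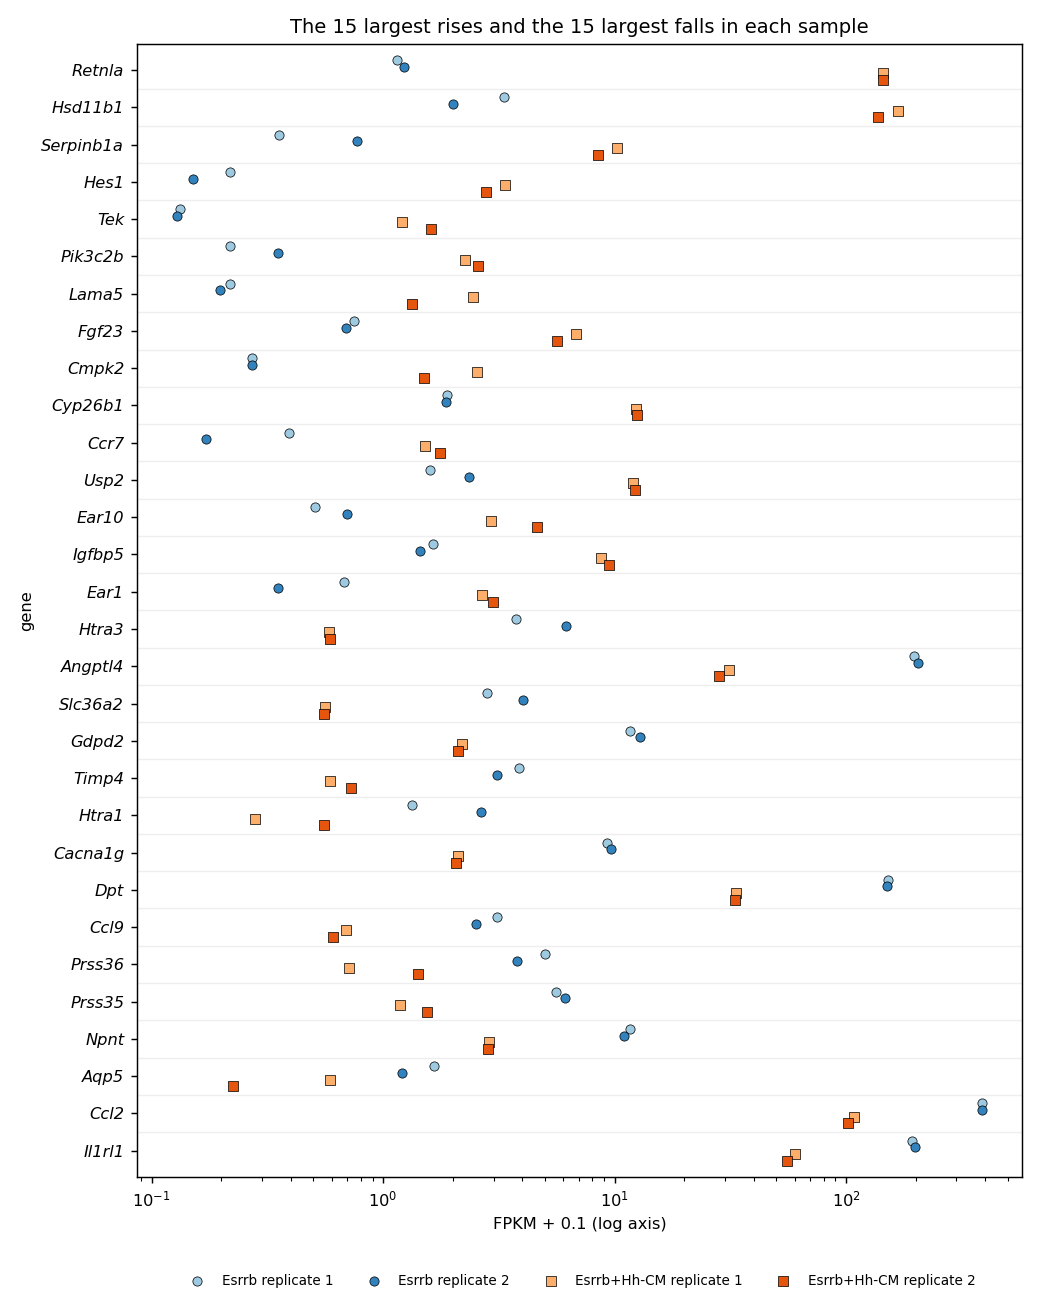
FPKM + 0.1 on a log axis for the 15 largest rises (Retnla to Ear1) and the 15 largest falls (Htra3 to Il1rl1) with the same locus in all 4 samples, one point per sample; circles are Esrrb and squares Esrrb+Hh-CM. No gene has points that overlap between treatments, which follows from how the genes were chosen, and several of the falls, such as Htra1 and Aqp5, lie at low FPKM with replicates apart.

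The largest fall was that of Htra3, a secreted serine protease, at 3.64 and 6.05 FPKM with vehicle and 0.484 and 0.49 with Hh-CM, 8.17-fold lower. Its relative Htra1 had a log2 fold change of -2.25, a call that was lost without Esrrb replicate 2 or Esrrb+Hh-CM replicate 1. Among abundant mRNAs the falls were tight between replicates. Dpt, the matrix protein dermatopontin, was at 151 and 150 FPKM with vehicle and 33.3 and 33 with Hh-CM, a log2 fold change of -2.18 in both lines. Il1rl1, the receptor of interleukin 33, was at 192 and 199 FPKM with vehicle and 60.4 and 55.7 with Hh-CM. Npnt, an integrin ligand, was at 11.5 and 10.9 FPKM with vehicle and 2.76 and 2.74 with Hh-CM, a log2 fold change of -1.99. The amino acid transporter Slc36a2, the phosphodiesterase Gdpd2, the calcium channel Cacna1g and the serine proteases Prss35 and Prss36 had log2 fold changes between -2.6 and -2.11. Htra3, Htra1, Slc36a2 and Aqp5 passed the FPKM limit only through the vehicle samples, so a difference was bound to appear. The same holds for Aldh1a7 above and for Timp4, Ccl9, Dusp4, Smad7, Lmod1, Sema7a and Crabp2 below. The call of the water channel gene Aqp5 (-1.96) was lost without any 1 of 6 samples, and that of Prss36 without Esrrb replicate 1 (adjusted p = 0.0504).

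Genes of cell division shifted together. Of the 70 listed genes of mitosis and cytokinesis 67 were matched and all of these were tested. Hh-CM raised 65 of them, against 3.37% of all tested genes, and 64 without Esrrb replicate 1. All 67 were higher at an adjusted p below 0.05, including Smc4 (log2 fold change 0.68) and Bub3 (0.25), which missed the limit on fold change. The log2 fold changes ran from 0.25 to 2.32 with a median of 1.54. The summed FPKM of the list was 552 and 543 with vehicle and 1551 and 1475 with Hh-CM, and 450, 460 and 840, 823 in the empty-vector line.

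Top2a, the topoisomerase that untangles chromosomes, was at 20.8 and 20.7 FPKM with vehicle and at 97.1 and 92.8 with Hh-CM, a log2 fold change of 2.19 (SE 0.04, adjusted p = 1e-05). Mki67, the proliferation antigen, was at 3.62 and 2.95 FPKM with vehicle and 13.3 and 13.7 with Hh-CM. Cenpf, a kinetochore protein, was at 1.78 and 1.52 FPKM with vehicle and 7.16 and 7.22 with Hh-CM. Ccnb1, the cyclin that drives entry into mitosis, was at 9.7 and 9.36 FPKM with vehicle and 32.7 and 30.8 with Hh-CM. In all 4 genes the 2 treatments were separated by more than the spread between replicates, which is a description only. Separation was part of the rule that chose Top2a, Mki67 and Cenpf, and Ccnb1 was chosen by its interaction from the same values. In bulk samples a larger share of dividing cells and more mRNA per dividing cell cannot be told apart.

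Of 62 tested genes of DNA replication and S-phase repair, 29 rose, and 55 were higher at an adjusted p below 0.05, against 14% of all tested genes. Without Esrrb replicate 1 the count of rises was 28. The log2 fold changes ran from -0.65 to 2.22 with a median of 0.98. Tk1, thymidine kinase, was at 13.1 and 12.6 FPKM with vehicle and 49.6 and 32.8 with Hh-CM. The values of 2810417H13Rik and Fanci, with log2 fold changes of 2.22 and 1.82, rest on Hh-CM replicates that disagree (104 and 31.4, and 4.67 and 10.9 FPKM) and on loci that differed between samples. Both calls were lost when either Esrrb replicate was left out. With a pseudocount of 1 the count of risen replication genes was 19.

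Microtubule genes followed in part. Of 9 tested tubulins and stathmins 2 rose, Stmn1, which destabilises microtubules, and Tubb2c, a beta tubulin. Stmn1 was at 42.8 and 44.9 FPKM with vehicle and at 107 and 102 with Hh-CM. Of 25 tested genes for G1 cyclins, their inhibitors and the Myc family, only Ccne2 rose, a share close to the 3.37% of all tested genes. Its log2 fold change was 1.11 and, with a pseudocount of 1, fell short of the limit at 0.94. Of 68 ribosomal protein genes no member was called by limma, and the median was 0.09. At an adjusted p below 0.05, 13 were higher and 0 lower, against 14% and 9.63% of all tested genes. At an unadjusted p below 0.05, 27 were higher. Of all tested genes 21.4% were higher and 14.4% lower at that unadjusted p.

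Small leucine-rich proteoglycans, matrix proteins that bind collagen and growth factors, shifted downwards. Of 10 tested members 2 fell, Ogn and Aspn, with the same count without Esrrb replicate 1, and 7 were lower at an adjusted p below 0.05, against 9.63% of all tested genes. The median log2 fold change was -0.64, and -0.03 in the empty-vector line. Ogn, osteoglycin, was at 93.3 and 91.9 FPKM with vehicle and 18.5 and 16.2 with Hh-CM (log2 fold change -2.41, SE 0.07, adjusted p = 2.56e-05). Aspn, asporin, was at 130.5 and 125 FPKM with vehicle and 54.8 and 57.1 with Hh-CM. In the empty-vector line Aspn was at 251.5 and 258 FPKM with vehicle and 251.2 and 245 with Hh-CM, a log2 fold change of -0.04, and the interaction was -1.15 (adjusted p = 0.000834). Fmod, fibromodulin, was at 3.09 and 3.14 FPKM with vehicle and 1.79 and 1.81 with Hh-CM, short of the limit on fold change, while in the empty-vector line Hh-CM samples were the higher ones. The abundant members Lum and Dcn had log2 fold changes of -0.93 and -0.51 with no call, and Bgn differed by -0.05.

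**Figure D3:**
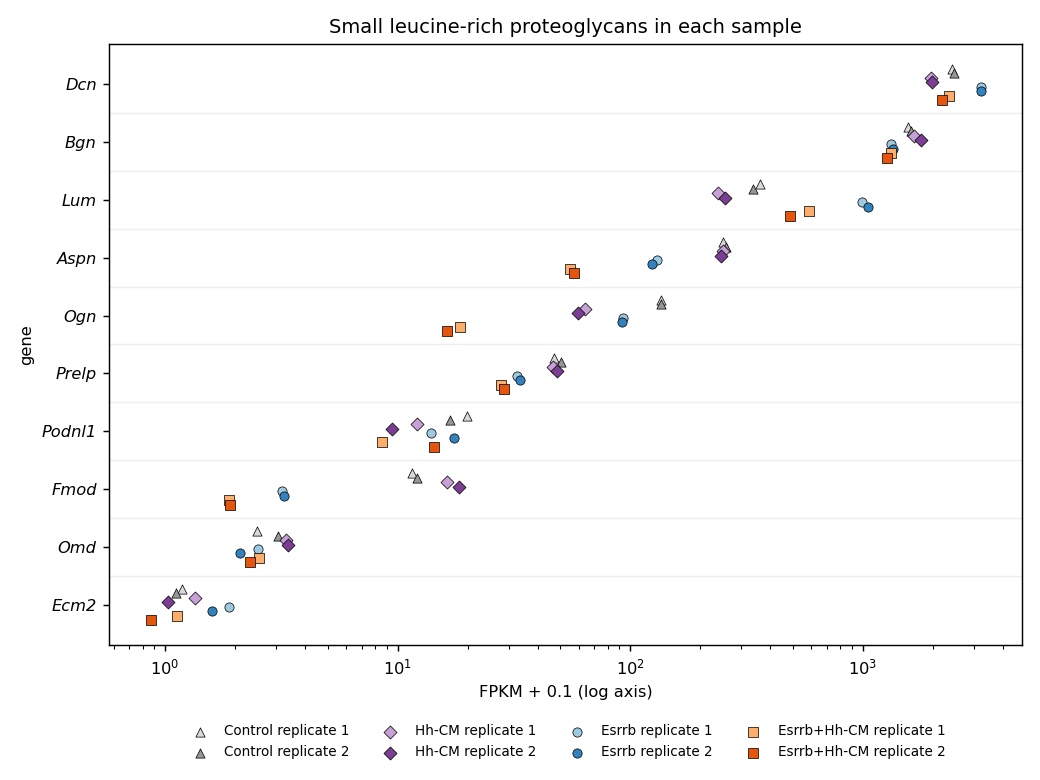
FPKM + 0.1 on a log axis for the 10 tested small leucine-rich proteoglycans in all 8 samples; triangles are Control, diamonds Hh-CM, circles Esrrb and squares Esrrb+Hh-CM. For Aspn the squares lie to the left of the circles while triangles and diamonds lie close together, and for Fmod the diamonds lie to the right of the triangles and the squares to the left of the circles.

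Other matrix genes moved in both directions. Of 36 tested collagens and collagen-processing enzymes 2 rose and 2 fell, against 3.37% and 1.3% of all tested genes. Both chains of basement membrane collagen rose, Col4a1 from 40.9 and 39.1 FPKM to 160 and 159, and Col4a2 from 34.1 and 33 to 104 and 106. The procollagen protease Adamts14 and the fibrillar collagen Col27a1 had log2 fold changes of -1.67 and -1.02, and the call of Col27a1 was lost with a pseudocount of 1 and without Esrrb replicate 1 or Esrrb+Hh-CM replicate 1. Of 34 tested matricellular and glycoprotein genes 2 rose, Fbn1 and Thbs3, and 6 fell, the call of Fbn1 being lost without Esrrb+Hh-CM replicate 2. Thbs1, which activates latent TGF-beta, was at 136 and 133 FPKM with vehicle and 36.8 and 41.3 with Hh-CM. Nid2, a basement membrane linker, was at 89 and 90.8 FPKM with vehicle and 34.6 and 36.2 with Hh-CM.

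Of 21 tested metalloproteinases, inhibitors and plasminogen activators 4 fell. Plat, tissue plasminogen activator, fell from 75.7 and 72.9 FPKM to 33.8 and 31. The remaining falls were in Timp4, Adam12 and Mmp9, with log2 fold changes of -2.41, -1.39 and -1.01.

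Signalling families were split between ligands, receptors and antagonists. Of 20 tested Wnt genes 3 rose and 4 fell. The R-spondin receptor Lgr4 rose from 6.54 and 6.64 FPKM to 27.6 and 26.6, the Frizzled receptor Fzd4 by 1.55 on the log2 scale and the antagonist Dkk2 by 1.12. The secreted antagonists Sfrp2 and Sfrp1, the receptor Fzd7 and the agonist Rspo2 fell. Sfrp2 was at 85.5 and 87.2 FPKM with vehicle and 33.5 and 31.8 with Hh-CM, levels that in the empty-vector line were between 3.47 and 8.13 FPKM over both treatments.

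Of 27 tested genes of the BMP and TGF-beta families 1 rose and 3 fell. Inhba, the activin subunit, was at 1.1 and 1.33 FPKM with vehicle and 14.7 and 15.1 with Hh-CM, 11.5-fold higher. Fst, follistatin, which binds activin, was at 9.29 and 7.94 FPKM with vehicle and 3.43 and 3.25 with Hh-CM. The inhibitory Smad7 and the helix-loop-helix inhibitor Id3 had log2 fold changes of -1.59 and -1.25, and the call of Smad7 was lost with a pseudocount of 1. Of 20 tested PDGF and FGF genes the ligand Pdgfc rose, from 10.6 and 11 FPKM to 46.8 and 43.9, and the MAP kinase phosphatase Dusp4 fell. Among 32 tested guidance genes Nrp1, a semaphorin and VEGF coreceptor, rose, and Sema7a, Efnb2, Sema5a and Sema3b fell. The calls of Sema7a and Sema5a were lost with a pseudocount of 1, that of Sema7a also without Esrrb replicate 2, and that of Sema5a also without Esrrb replicate 1 or Esrrb+Hh-CM replicate 1. Of 7 tested Notch genes only Hes1 rose.

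Surface and adhesion genes rose in 3 cases and fell in 2 of 26 tested. Thy1, a surface glycoprotein of fibroblasts, was at 94.8 and 97.8 FPKM with vehicle and 551 and 510 with Hh-CM, 5.5-fold higher. The hyaluronan receptor Cd44 and the adhesion molecule Ncam1 had log2 fold changes of 1.26 and 1.2. The collagen-binding integrin Itga11 and the glypican Gpc6 had values of -1.22 and -1.19.

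Of 22 tested chemokines and cytokines 6 fell and 1 rose, against 1.3% and 3.37% of all tested genes, and 15 had no call. The median was -0.72. Ccl2, which recruits monocytes, was at 387 FPKM in both vehicle samples and at 108 and 102 with Hh-CM. Cxcl5, which recruits neutrophils, was at 734 and 762 FPKM with vehicle and 232 and 221 with Hh-CM. Ccl7, Cxcl1, Ccl9 and Ccl11 had log2 fold changes between -2.11 and -1.26. The exception was the cytokine Il6, at 2.16 and 2.83 FPKM with vehicle and 8.74 and 7.7 with Hh-CM.

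Of 15 tested acute-phase and complement genes 4 rose and 2 fell. Saa3, a serum amyloid, was the most abundant, at 2492 and 2476 FPKM with vehicle and 863 and 832 with Hh-CM. Its paralog Saa1 went from 0.544 and 0.635 FPKM to 7.16 and 4.26, and passed the FPKM limit only through the Hh-CM samples. Hp, haptoglobin, went from 34.8 and 40.6 FPKM to 113 and 99.6, and Lbp and Cp rose by 1.76 and 1.04 on the log2 scale. Of 26 interferon-stimulated genes no member was called by limma, while 2 were higher and 7 lower at an unadjusted p below 0.05. At an adjusted p below 0.05 these counts were 2 and 6.

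Of 35 tested contractile and YAP target genes 3 fell, Lmod1, Mylk and Tagln, and the kinase Nuak2 rose. Without Esrrb+Hh-CM replicate 2 the calls of Lmod1 and Tagln were lost. Mylk, myosin light chain kinase, was at 13.6 and 13.3 FPKM with vehicle and 4.26 and 4.39 with Hh-CM. The smooth muscle markers Tagln and Acta2, the 2 tested of 6, summed with the others to 254 and 257 FPKM with vehicle and 146 and 144 with Hh-CM. Of 20 tested adipogenic genes, with Pltp set apart, Retnla and Klf4 rose and Angptl4 and Fabp4 fell. The call of Fabp4, at 3.85 and 3.81 against 1.35 and 2.11 FPKM, was lost without any 1 of 3 samples. In the retinoid list of 14 tested genes Cyp26b1 and Tgm2 rose and Crabp2 and Aldh1a7 fell, and the call of Crabp2 was lost without any 1 of 5 samples. That of Aldh1a7 was lost with a pseudocount of 1 and without Esrrb replicate 2 or Esrrb+Hh-CM replicate 1.

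Of 8 tested Hox genes 3 rose, all of the Hoxd cluster. Hoxd8 was at 63.2 and 50.6 FPKM with vehicle and 139 and 130 with Hh-CM, and Hoxd9 at 13 and 12.7 with vehicle and 30.5 and 27 with Hh-CM. Hoxd3 had a log2 fold change of 1.13, lost without any 1 of 6 samples. Neighbouring Hoxd genes overlap, and reads between them can be assigned to either.

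Several families had no call by limma in either direction, a call needing the limit on fold change as well as the adjusted p. Of 52 genes of the primary cilium, the organelle through which the signal passes, 10 were higher and 2 lower at an unadjusted p below 0.05, against 21.4% and 14.4% of all tested genes. For 50 genes of the respiratory chain and citrate cycle, which include known targets of estrogen-related receptors, these counts were 17 and 3, with a median log2 fold change of 0.1. They were 7 and 8 of 29 genes of glycolysis and hypoxia, 7 and 4 of 20 targets of NRF2 and p53, 0 and 2 of 9 forkhead factors, and 2 and 0 of 7 estrogen-related receptors and partners. At an adjusted p below 0.05 the higher and lower counts were 3 and 0 for cilium genes and 12 and 2 for respiratory genes. For glycolysis they were 5 and 5, for NRF2 and p53 targets 5 and 3, for forkhead factors 0 and 0, and for estrogen-related receptors 1 and 0. Of all tested genes 14% were higher and 9.63% lower at that adjusted p. Single calls were Insig2 (-1.09), which retains the sterol sensor, among 33 tested genes of cholesterol and fatty acid synthesis, the stress factor Atf3 (-1.67) among 27, and the clock repressor Bhlhe41 (1.13) among 16, the last lost with a pseudocount of 1. Of the 14 matched mRNAs that the study chose for qPCR, which are no independent evidence of a direction, 7 rose and 4 fell. The letters TCAAGGTCA lay within 2000 bases of the start in 10.4% of scanned risen genes and 10.2% of fallen genes, against 10.5% of tested genes.

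The empty-vector line, which shares no sample with the 4 described here, had smaller counts. Both comparisons came from 1 fit with a shared estimate of the variance, so their calls are not independent. The FPKM limit was set on the Esrrb-labelled samples alone, and genes that reached it only with the empty vector were not counted. Over the same tested genes Hh-CM raised 188 (1.86%) and lowered 80 (0.791%) there. Of the 340 genes that rose in the Esrrb-labelled line 144 were also called up with the empty vector, 42.4% of the first list and 79.1% of the 182 called up there, which were 1.8% of the 10094 genes. For falls 57 genes were shared, 43.5% of 131 and 71.2% of 80, the latter 0.793% of these genes. Only Prss36 was called in opposite directions. Across 10094 genes Pearson's r of the log2 fold changes was 0.42, given as a description, since genes are not independent replicates.

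Medians depend on which line chose the genes. The 182 genes called up with the empty vector had a median log2 fold change of 1.37 there and 1.51 in the Esrrb-labelled line, and 109 of them had the larger value in the latter. For the 80 called down the medians were -1.26 and -1.36. The test of the difference between the responses, the interaction, passed an adjusted p of 0.05 for 135 genes (1.33%), 77 with a more positive (0.761%) and 58 with a more negative change (0.573%) in the Esrrb-labelled line. Of these 17 had a value of 0 in at least 1 of the 8 samples. The count was not stable when 1 sample was left out: it fell in most such fits and rose without Esrrb+Hh-CM replicate 2. Each of these fits leaves a lone sample in 1 group, so dependence on that sample and loss of power cannot be told apart.

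The mitosis list lay to 1 side of this difference. Its log2 fold change was larger with the Esrrb label for 65 of 67 genes, against 50.2% of all tested genes, with a median difference of 0.59. The interaction was called for 12 of its members, all more positive: Kif4, Ccnb1, Spag5, Kif2c, Plk1, Racgap1, Top2a, Ube2c, Ncapd2, Tpx2, Ccna2 and Cdk1. This count did not hold when samples were left out: it was 2 and 0 without Control replicates 1 and 2, 1 and 0 without Esrrb replicates 1 and 2, 2 and 0 without Hh-CM replicates 1 and 2, and 3 and 7 without Esrrb+Hh-CM replicates 1 and 2. In all 8 of these fits 64 to 66 members had the larger value with the Esrrb label, and with all samples 53 had an unadjusted p below 0.05. Of the DNA replication genes 60 of 62 had the larger value with the Esrrb label, with a median difference of 0.46. No replication gene passed the interaction test by limma at an adjusted p of 0.05. At an unadjusted p below 0.05 there were 34, against 18.1% of all tested genes. The cell-division lists were not alone in this. At that unadjusted p there were 34 of 68 ribosomal protein genes and 22 of 50 respiratory chain and citrate cycle genes. Their interaction calls by limma numbered 4 and 1, all more positive. The members of such a list are regulated together and do not count as replicates. In the empty-vector line 28 mitosis and 5 replication genes were called up.

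**Figure D4:**
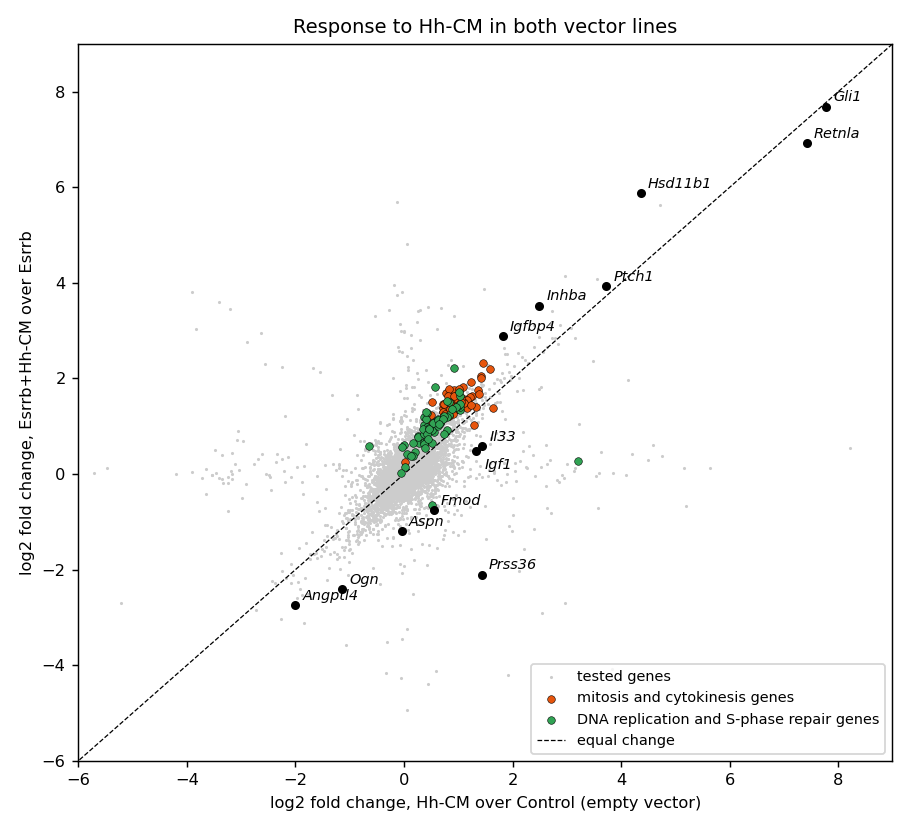
Log2 fold change with Hh-CM in the empty-vector line (x axis) against the Esrrb-labelled line (y axis), one point per tested gene, with mitosis genes in orange, DNA replication genes in green, named genes in black and the line of equal change dashed; 5 genes lie outside the axes. Gli1 and Ptch1 lie near the line, nearly all mitosis genes lie above it, and Aspn, Ogn, Fmod and Prss36 lie below it.

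The genes at exactly 0 in both samples of 1 treatment are listed values only. On the vehicle side these were 15 genes, led in level by Fdft1, Ormdl2, Pltp, Rnd2 and Traf3ip3. Fdft1, squalene synthase, was listed at 0 in both Esrrb samples and at 34.7 and 32.7 FPKM with Hh-CM, but also at 35.6 and 35.9 in Control. In 11 of the 15 genes another assembled locus with FPKM above 0 overlapped the gene, by any length, in the samples at 0. Pltp, a phospholipid transfer protein, was at 0 in all 4 vehicle samples of both lines, at 12.6 and 17.8 FPKM in Esrrb+Hh-CM and at 34.7 and 25.2 in Hh-CM. It was also overlapped by another locus. Ccdc3, at 0 in both Esrrb samples and at 1.87 and 1.1 FPKM with Hh-CM, was overlapped by no other such locus. On the Hh-CM side these were 7 genes, among them Nr1d1, Znhit1, Tymp, Gps2 and Fam118b, and 3 of the 7 were overlapped by another locus. Gps2 was at 15.2 and 14.7 FPKM in Esrrb and listed at 0 in both Esrrb+Hh-CM samples, while the 4 empty-vector samples were between 14.8 and 15.7. No fold change is given for these genes.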

How the data were processed

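RNA-Seq reads of the 8 NIH3T3 samples were aligned to mm9 with TopHat2 and assembled with Cufflinks by the authors, who deposited FPKM per locus and sample. No read counts were used here, and depth was known only relative to Control replicate 1. Loci were joined by position to annotated mm9 genes, with an overlap of at least 0.5, and the FPKM of loci of 1 gene were summed. Genes with an FPKM of 1 or more in at least 2 of the 4 Esrrb-labelled samples were tested on log2(FPKM + 0.1) by limma (version 3.58.1, under R 4.3.3), which fitted the 4 group means of all 8 samples together with a variance trend. A call needed a difference of 1 or more on this scale and a Benjamini-Hochberg adjusted p below 0.05. The interaction, the difference of the responses of the 2 lines, needed the adjusted p alone. Figures were drawn with matplotlib 3.10.9, and tables joined with pandas 2.3.3 and numpy 2.4.6 under Python 3.11.15.

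The members and gene lists were chosen with earlier results of these data known. Named genes were the Hedgehog list with Hsd11b1 and Igfbp4, up to 4 called members of each list with the largest change, above 0 FPKM in all 4 samples and moving the same way in all 4 pairs of samples, the 15 largest rises and falls with the same locus in all 4 samples, the 5 highest genes set apart at 0 on each side, the 8 largest interactions in each direction, and the mRNAs the study measured by qPCR. Some genes that meet this rule are not reported here. Genes outside this rule that complete a small count, and Ccdc3, Ofd1, Smc4 and Bub3, were named after their values were seen. The window of 2000 bases around starts was also chosen after the promoter table had been searched. On simulated data with 9945 genes, 90% of changes of 1.5 and 97.98% of changes of 3 on the log2 scale were recovered in Esrrb against Esrrb+Hh-CM. Same-numbered samples of different groups had correlations of their deviations between -0.0631 and 0.0732, so the numbers were not taken as pairs. Alternatives covered the pseudocount, FPKM limit, scaling, variance trend, locus rules, samples in the fit, a replicate block and leaving out each sample.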

Additional observations from a re-analysis of the deposited data

Results flagged for a closer look

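The response to Hh-CM differed between the Esrrb-labelled and the empty-vector line, by the interaction in limma, for 25 genes named here. Each value below is the log2 fold change of the Esrrb-labelled line minus that of the empty-vector line. With 2 samples a group, no sample could be tested as lying apart from its group. The more negative differences were those of Prss36 (-3.55), Fmod (-1.32), Ogn (-1.28), Aspn (-1.15), Id2 (-1.02), Olfml2b (-0.94), Il33 (-0.86), Igf1 (-0.84), Npnt (-0.82), Pdcd4 (-0.73), Pdk4 (-0.62), Nrp1 (-0.5) and Gas1 (-0.48). The more positive differences were those of Igfbp4 (1.06), Inhba (1.03), Kif4 (0.99), Hp (0.93), Pigk (0.89), Mif (0.86), Ccnb1 (0.83), Pfdn2 (0.82), Spag5 (0.82), Tgm2 (0.61), Top2a (0.61) and Tubb2c (0.5).

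Fmod, Ogn, Aspn, Olfml2b, Il33, Pdcd4, Pdk4, Mif and Pigk were called in each alternative in which they were tested. Kif4 was called in 8 of 21 alternatives, the lowest share of the 25 genes. Prss36 was called in 12 of 20, Igfbp4 and Inhba in 13 of 20 each, Ccnb1 in 11 of 21 and Top2a in 15 of 20. For Pfdn2, a prefoldin subunit, the difference came with a log2 fold change of -0.01 in the Esrrb-labelled line and -0.83 in the empty-vector line. Pigk, a subunit of the GPI transamidase, had -0.15 and -1.04, and Il33, an alarmin of the interleukin 1 family, had 0.58 and 1.44. These 3 genes had no call in the Esrrb-labelled line.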

How the results depend on the processing

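The count of rises in the Esrrb-labelled line was 1428 with the adjusted p alone and 229 for genes with the same locus in all 4 samples, where fewer genes were tested. The count of falls was 975 with the adjusted p alone. Leaving out 1 sample gave 343 to 375 rises and 132 to 149 falls. The interaction was called for 79 genes with no variance trend and 58 to 162 genes when 1 sample was left out. In the empty-vector line rises numbered 1063 with the adjusted p alone, 122 with a pseudocount of 1 and 116 with the same locus, and falls 775 and 47 under the first and second of these. With the replicate number as a block the Esrrb-labelled line had 344 rises and 130 falls and the interaction 52 genes, but the numbers do not pair the samples. A limit on mean FPKM of at least 1, chosen after seeing the data, gave 335 rises, 127 falls and 132 interactions. Of 105 named genes called, 85 kept their call in each alternative where tested and none changed direction. The adjusted p alone was not among the alternatives run for named genes. Relative depth was known only from FPKM steps, with no counts, so low genes carry an error not measured here. When a lone sample was left in a group, it was taken to vary like the others.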
